A study of Mus musculus with 4 samples.

Results

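Keratins are the proteins of the epithelial intermediate filament, and their genes were read here on 4 arrays of RNA labelled as coming from mast cells. The genes were chosen by name: every gene whose annotated symbol is Krt followed by digits, a trailing letter allowed as in Krt6a, with the keratin-associated Krtap genes left out. The rule uses no measured value, though it was set with earlier results of these data known. It gave 61 probe sets of 48 genes, out of 45037 probe sets and 18193 named genes on the array. Of these, 33 probe sets read 25 type I genes and 28 read 23 type II genes. The RefSeq table holds 54 keratin genes, and Krt9, Krt39, Krt40, Krt74, Krt87 and Krt90 had no probe set here. A further probe set, annotated to both Krt17 and Krt14, was kept apart. Krt88 was counted as type II because its neighbours in RefSeq are type II genes.

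The RNA is labelled as that of MC/9, a mouse mast cell line that the labels trace to liver of a (B6 X A/J)F1 background at an age of 13 days and describe as lymphoblast in shape, grown in medium with a rat T cell supplement. Control cells had no treatment. The BER cells received berberine, a plant alkaloid, at 10 microM, the DNP cells an IgE against DNP (anti-DNP IgE) at 500 microg/ml, and the BER+DNP cells both agents. Treatment lasted 24 h and was followed by 6 h of culture, times that the labels do not give for the control. Each group held 1 array, an Affymetrix mouse expression chip on which short oligonucleotide probes read the 3' part of transcripts. There is therefore no replicate error, no test between groups was run, and the number of arrays limits the precision.

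A keratin filament is built from heterodimers, each of 1 acidic type I chain and 1 neutral to basic type II chain. The type I genes lie together in one chromosomal cluster and the type II genes in another, where the type I gene Krt18 also lies. Pairs mark kinds of epithelium: Krt8 with Krt18 in simple epithelia, Krt5 with Krt14 in the basal layer of stratified epithelia, Krt1 with Krt10 in differentiating epidermis, Krt6a and Krt6b with Krt16 and Krt17 in stressed or healing epidermis, and a large set in hair. Blood cells, mast cells included, build their cytoplasmic filaments mainly from vimentin, so keratin genes serve as a check on which cells the RNA came from.

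The sequences before the annotated starts of 4 members are given for reference beside their signals. Krt14 is the brightest member with an entry in the RefSeq promoter table, and Krt13, Krt79 and Krt76 are those of the table that moved the same way by 1.2-fold or more in both berberine pairs (BER against control and BER+DNP against DNP). Entries for Krt17, Krt15 and Krt6b were not in the table. Each line gives the 250 bases before the start on the strand of the gene, from RefSeq on GRCm38.p6, all on the minus strand. Krt14 is at chr11:100206031-100206280, Krt13 at chr11:100121567-100121816, Krt79 at chr15:101940325-101940574 and Krt76 at chr15:101892921-101893170. Krt13 has 2 entries, of which the first is given. Capitals mark the TATA box letters TATAAA.
Krt14: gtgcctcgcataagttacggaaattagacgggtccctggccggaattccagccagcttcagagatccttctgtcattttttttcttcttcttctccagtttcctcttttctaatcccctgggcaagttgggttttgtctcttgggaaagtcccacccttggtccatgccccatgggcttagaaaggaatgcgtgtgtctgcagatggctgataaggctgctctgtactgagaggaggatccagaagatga
Krt13: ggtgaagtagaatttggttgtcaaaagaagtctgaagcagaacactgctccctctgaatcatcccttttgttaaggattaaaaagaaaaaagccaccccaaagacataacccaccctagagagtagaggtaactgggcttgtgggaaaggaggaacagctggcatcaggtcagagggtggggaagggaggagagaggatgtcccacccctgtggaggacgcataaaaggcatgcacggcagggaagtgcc
Krt79: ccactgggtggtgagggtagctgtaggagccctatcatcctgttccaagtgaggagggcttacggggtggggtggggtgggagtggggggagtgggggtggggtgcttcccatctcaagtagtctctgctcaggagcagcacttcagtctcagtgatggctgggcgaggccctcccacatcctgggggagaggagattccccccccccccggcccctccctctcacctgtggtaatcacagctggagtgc
Krt76: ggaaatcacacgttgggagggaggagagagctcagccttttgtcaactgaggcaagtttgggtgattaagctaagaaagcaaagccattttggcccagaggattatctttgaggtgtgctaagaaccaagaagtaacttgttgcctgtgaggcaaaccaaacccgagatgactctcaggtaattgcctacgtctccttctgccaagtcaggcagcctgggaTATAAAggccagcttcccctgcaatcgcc
Of the 4, Krt76 alone holds TATAAA, starting 29 bases before the start. On either strand, TATAAA occurred in 17 of the 37 keratin promoter entries (36 genes), against 12.4% of all 32851 entries. By type, 12 of 22 type I entries and 5 of 15 type II entries held it. GCCNNNGGC, the letters that AP-2 factors prefer, occurred in 5 of the 37 and in 13.7% of all entries. These are matches of letters in a fixed window, not shown to be sites in use.

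Probe set signals are given as log2 values as the authors deposited them, and 4 signals in a row follow the order control, BER, DNP, BER+DNP. The scale is one where the median over all probe sets was 3.14 (the filter used below) and the 75th percentile was 4.31. Signals of different probe sets also differ by how well each hybridises, so a place in this order is not a level of expression. At least 1 probe set reached the filter in 38 of 48 keratin genes (79.2%, against 69.2% of all 18193 genes). For type I this was 17 of 25 genes, and for type II 21 of 23. The brightest probe set reached the 75th percentile in 26 keratin genes (54.2%, against 41.1% of all genes), 11 of type I and 15 of type II.

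**Figure D1:**
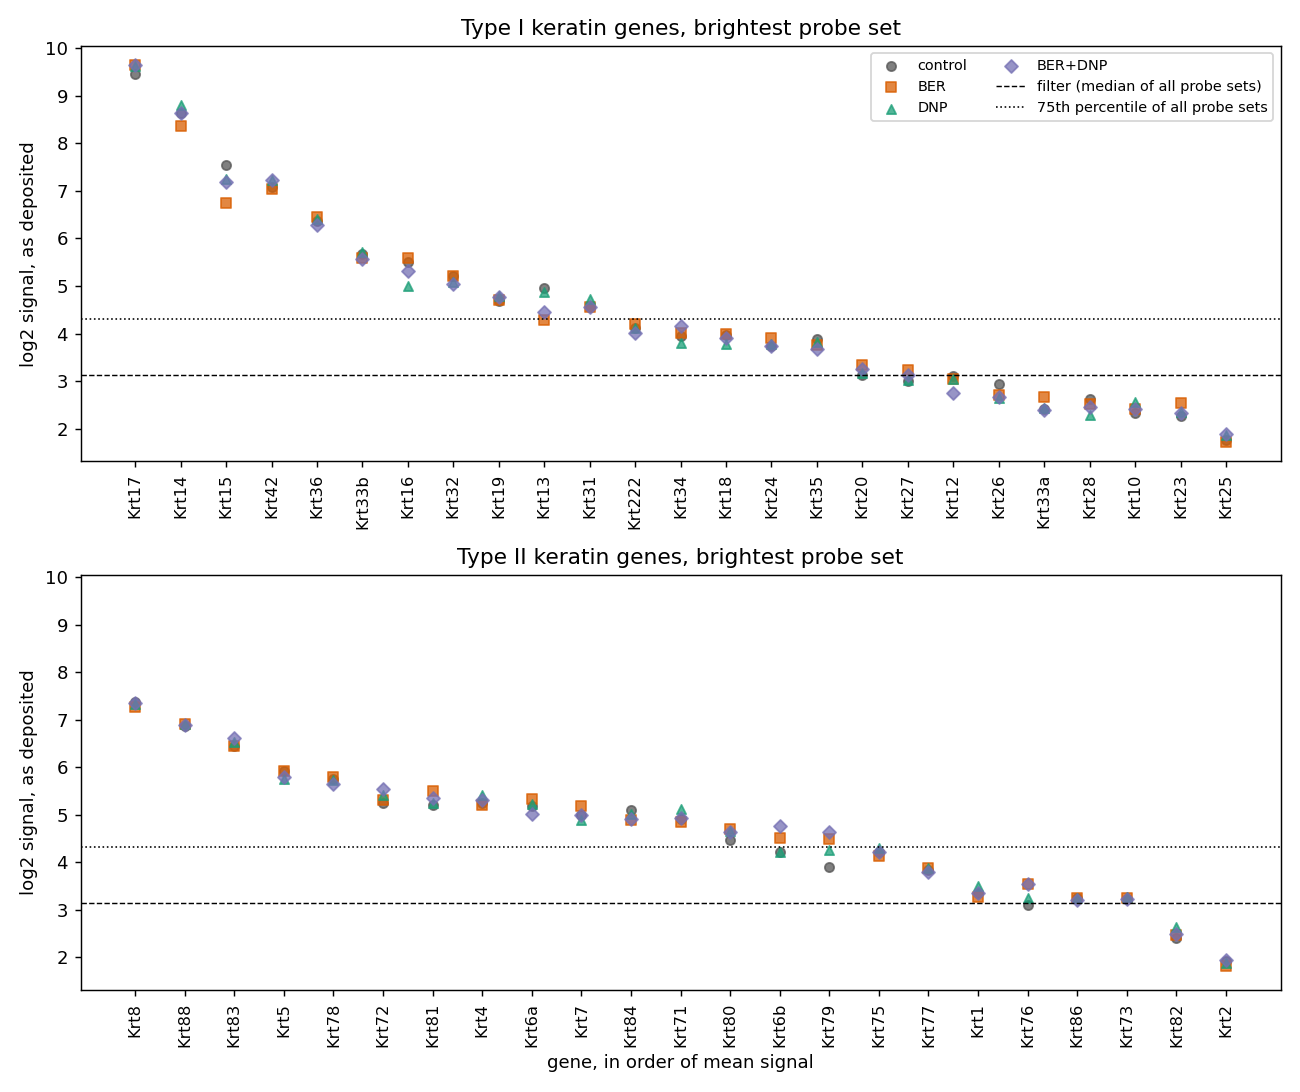
Log2 signal of the brightest probe set of each keratin gene on the 4 arrays, type I above and type II below, in order of mean signal. Points are single arrays, the dashed line is the filter at 3.14 and the dotted line the 75th percentile at 4.31. Krt17 and Krt14 stand at the top, and the 4 arrays lie close together for most genes.

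Among the keratins of basal and stressed epithelium, all 7 genes listed (Krt5, Krt14, Krt15, Krt6a, Krt6b, Krt16 and Krt17) reached the 75th percentile. That is 100%, against 41.1% of all genes. Krt17, a type I keratin of stressed and appendage epithelium, read 9.45, 9.65, 9.63 and 9.65. Its mean stood at the 99.6th percentile of all probe sets, and the 4 arrays spanned 0.20. Krt14, the basal type I keratin, read 8.63, 8.37, 8.82 and 8.64, at the 99.3rd percentile. Both stayed near the top of the array under every treatment. Krt15, a second basal type I keratin, read 7.55, 6.75, 7.26 and 7.19, with the BER array lowest. The type II partner of Krt14, Krt5, was steadier, at 5.92, 5.91, 5.75 and 5.80 (94.0th percentile). Krt16, a type I keratin of stressed epidermis, read 5.51, 5.60, 4.99 and 5.31, so the 2 arrays with anti-DNP IgE were the lower ones. Its type II partners Krt6a and Krt6b had means of 5.19 and 4.43. Krt6b read 4.23, 4.51, 4.21 and 4.76, so both berberine arrays were the higher ones. Its mean lay above the 75th percentile, but its control and DNP signals lay below it.

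Among the 6 keratins of simple epithelia, 5 reached the filter and 3 the 75th percentile (50%, against 41.1% of all genes). Krt8, the type II keratin of simple epithelia, read 7.37, 7.27, 7.33 and 7.36 on its brightest probe set (98.3rd percentile). Krt18, its type I partner, read 3.97, 4.00, 3.77 and 3.90 (67.2nd percentile). The bright Krt8 probe set carries the suffix x, which Affymetrix gives to probe sets that can cross-hybridise, while that of Krt18 does not. Krt7 and Krt19, of ducts and other simple epithelia, had means of 5.02 and 4.74. Krt20, of intestinal epithelium, was at 3.22, and Krt23 lay below the filter at 2.37.

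Of 12 keratins of differentiating stratified epithelia, 9 reached the filter and 5 the 75th percentile (41.7%, against 41.1% of all genes). Krt10, the type I keratin that marks the layers above the basal one, had a mean of 2.43, and its type II partner Krt1 one of 3.37. Krt2, of the upper epidermis, was at 1.89. Krt4 and Krt13, the pair of mucosal linings such as the oesophagus, had means of 5.29 and 4.65. The brightest Krt4 probe set carries the suffix x. Krt13 read 4.96, 4.29, 4.88 and 4.45, with both berberine arrays below both others. Krt78 and Krt80, both type II, had means of 5.73 and 4.61, and Krt12, of the cornea, stood below the filter at 2.98.

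Of 20 keratins of hair and its inner root sheath, 14 reached the filter and 9 the 75th percentile (45%, against 41.1% of all genes). Type I members among the 9 were Krt36 at a mean of 6.38, Krt33b at 5.64, Krt32 at 5.13 and Krt31 at 4.61. Type II members were Krt83 at 6.51, Krt72 at 5.38, Krt81 at 5.32, Krt84 at 4.98 and Krt71 at 4.96. These genes spanned little over the arrays, Krt83 from 6.44 to 6.62 and Krt36 from 6.29 to 6.45. Outside the 4 groups, Krt42 had a mean of 7.15 on a probe set with the suffix x, and Krt88 one of 6.89, with the 4 arrays between 6.86 and 6.90. Krt222, a keratin-like gene, was at 4.11. Krt79 and Krt76, counted above with differentiating stratified epithelia, had means of 4.32 and 3.36. Their signals are given with berberine. Krt24 and Krt77 of the same group and Krt34, Krt35 and Krt75 of hair reached the filter with means from 3.79 to 4.21. Krt25, Krt26, Krt28, Krt33a and Krt82, of hair and its inner root sheath, lay below it, with means from 1.81 to 2.74. At the edge of the filter, Krt20 (3.22), Krt86 and Krt73 (both 3.24) lay just inside it and Krt27 (3.10) just outside.

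Different probe sets of the same keratin gene gave far different signals. Of the 48 genes, 9 had several probe sets. The gap between the means of the brightest and dimmest was 6.68 for Krt17 (9.60 and 2.91), 6.01 for Krt14 (8.61 and 2.60), 3.79 for Krt8 and 3.21 for Krt6a. It was smallest for Krt12, at 0.59. Krt8 shows what this means for a single gene: beside the bright probe set, the other 2 had means of 3.89 and 3.54. Across all genes with at least 2 probe sets free of the suffixes x, s and a, the mean signals of 2 probe sets of the same gene correlated at r = 0.15 over 6622 genes, which are not independent replicates. A dim keratin probe set therefore does not show that the transcript was absent, nor does a bright one give its amount.

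**Figure D2:**
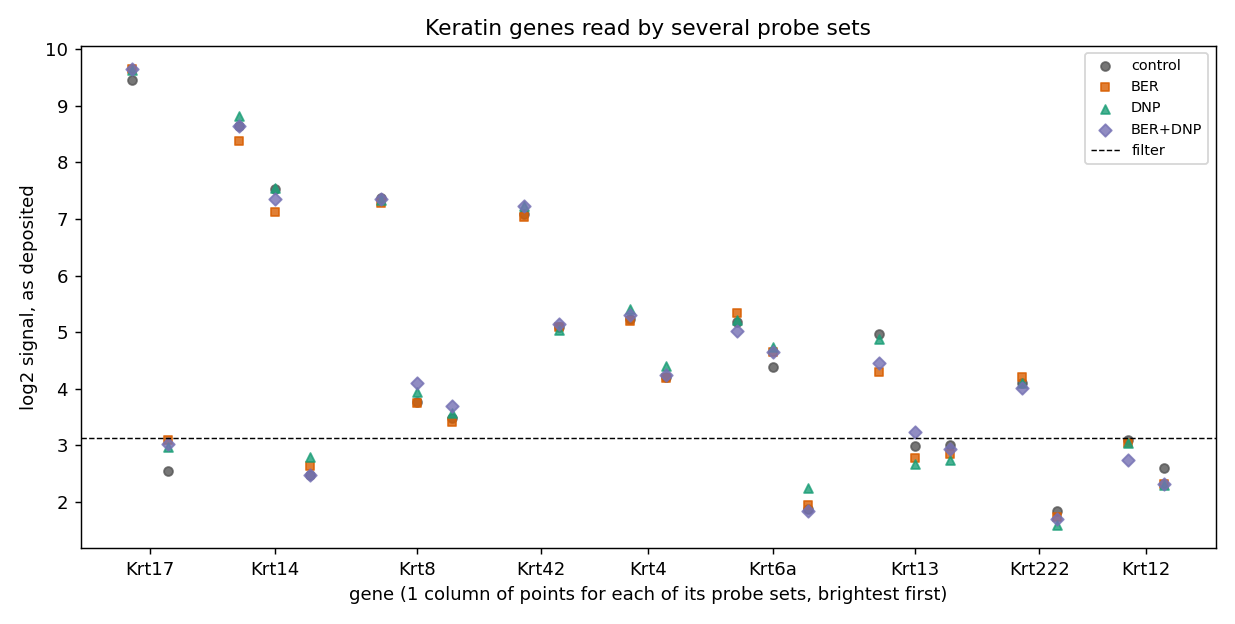
Log2 signal on the 4 arrays for the 9 keratin genes with several probe sets, 1 column of points for each probe set and the brightest first; the dashed line is the filter. The probe sets of Krt17 and of Krt14 lie over 6 log2 units apart at the extremes. The 4 arrays of 1 probe set span at most 0.67, for the brightest of Krt13.

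The label of the cells was set against marker genes, read by the brightest probe set. Over all 18193 genes read that way, 69.2% reached the filter and 41.1% the 75th percentile. Of 16 mast cell genes measured, 7 reached the filter and 2 the 75th percentile (12.5%), with a median signal of 2.77. The brightest were Gata2, a transcription factor gene of mast and stem cells (mean 5.87), Hdc, which makes histamine (5.50), and Tpsb2, a tryptase gene (4.08). The defining receptor genes Kit (2.78) and Fcer1a (2.43) and the protease gene Cpa3 (2.53) lay below the filter. Summed on the linear scale, mast cell signals lay between 203 and 236 over the arrays. Of 18 pan-leukocyte genes, 14 reached the filter and 6 the 75th percentile (33.3%, median 3.95). Laptm5, a lysosomal membrane gene of blood cells, led them at 6.69, while Ptprc, the common leukocyte antigen, was at 2.29.

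Genes that work with keratins in epithelia were set beside them. Of 22 epithelial identity genes, 19 reached the filter (against 69.2% of all genes) and 13 the 75th percentile (59.1%, against 41.1% of all genes). Their median was 4.79, and their sums on the linear scale ran from 698 to 745. The tight junction genes Cldn7 (6.61), Cldn3 (6.30) and Cldn4 (5.93) and the epithelial transcription factor gene Elf3 (5.81) were the brightest. Cdh1, which encodes E-cadherin and defines most epithelia, read no higher than 1.71 on any array, at the 0.907th percentile of genes by its mean. Epcam was at 5.14, on a probe set with the suffix x. Of 12 genes of the cornified envelope, the shell of dead surface cells, 8 reached the filter and 4 the 75th percentile (33.3%). Casp14 led them at 5.74, on a probe set with the suffix x.

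Of 19 desmosome and keratin linker genes, 15 reached the filter and 9 the 75th percentile (47.4%, against 41.1% of all genes). Plec, which encodes the linker plectin, had the brightest probe set (8.14), followed by the plakophilin genes Pkp1 (6.52) and Pkp3 (6.37) and by Jup, the plakoglobin gene (5.23). Dsp, whose product desmoplakin ties keratin to every desmosome, lay below the filter at 3.02, and Perp was at 1.68. In the list of other intermediate filament genes, 12 of 15 reached the filter, against 69.2% of all genes. Nes, the nestin gene, was at 7.60 and the lamin gene Lmna at 6.99. Vim, the vimentin gene, was at 2.64, below the filter on its brightest probe set.

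Marker lists of other cell types were read the same way. Genes at or above the 75th percentile numbered 7 of 17 for fibroblast and mesenchymal cells (41.2%) and 3 of 12 for hepatocytes (25%). For endothelium they numbered 4 of 10 (40%) and for erythroid cells 4 of 6 (66.7%). Of all genes 41.1% reached it, so the fibroblast and endothelial lists lay near that share. The brightest members of the lists, in the same order, were Acta2 (5.41), Ttr (5.51), Egfl7 (6.73) and Epor (5.79). Others of high signal were Fn1 (5.22), Hnf4a (5.42), Kdr (4.89) and Klf1 (5.19). Of the defining genes, picked after their values were seen, Col1a1 (2.64) and Cdh5 (2.75) lay below the filter. Alb (3.68) and Hba-a1 (3.15) lay above it and below the 75th percentile. As a guide to genes seldom used outside the nose, 43 probe sets of olfactory receptor genes had a median of 3.09, a 95th percentile of 4.83 and a maximum of 5.19. Keratin probe sets above that maximum numbered 16 of 61 (26.2%), against 11.8% of all probe sets. Genes that nearly every cell uses were mostly bright but not uniformly so. Of 11 housekeeping genes, all reached the filter and 9 the 75th percentile (81.8%, against 41.1% of all genes). Ywhaz (12.46, on a probe set with the suffix x) and Eef1a1 (12.17) led them. Of 39 genes for cytosolic ribosomal proteins, a list added after the signals had been seen, 4 lay below the filter, and the range ran from 2.24 for Rpl14 to 13.30 for Rpl37a. Among the 11 housekeeping genes, the elongation factor gene Eef2 was the dimmest, at 4.18. Which cells, and of which species, the keratin signals came from was not tested, and the marker levels above carry the same limits of single probe sets.

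**Figure D3:**
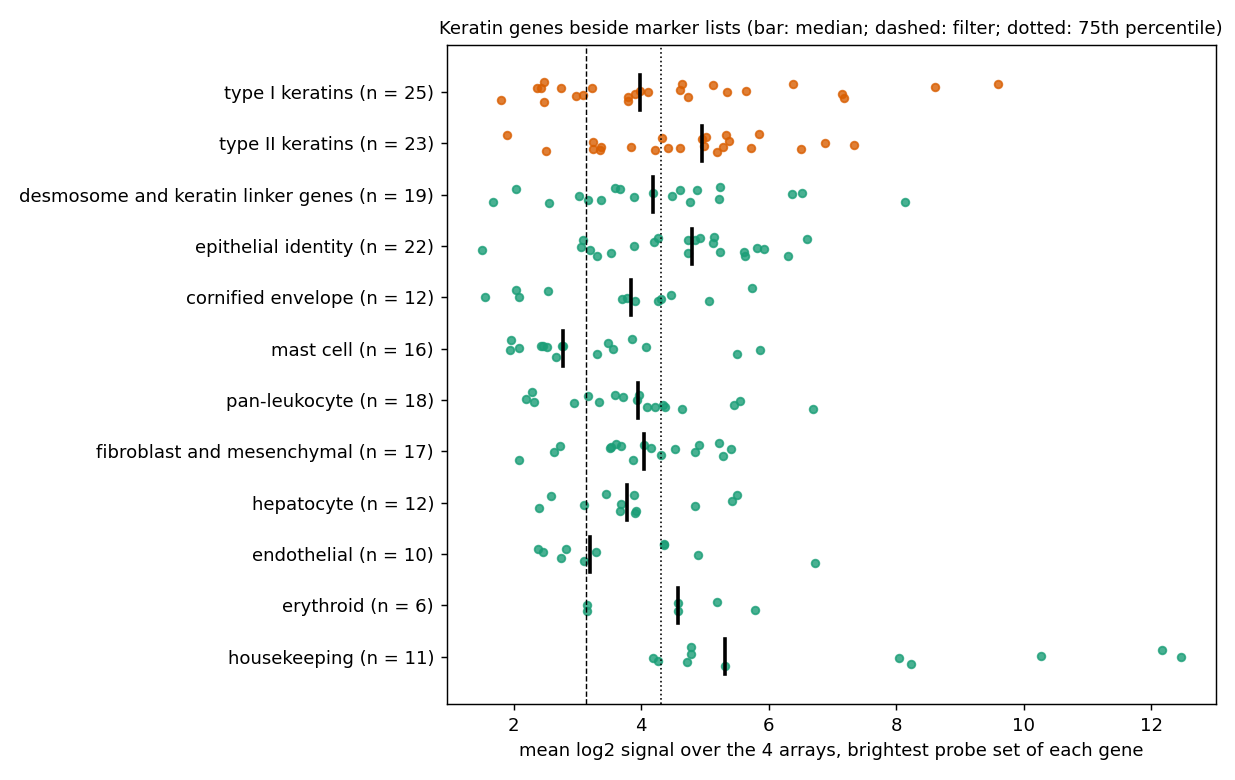
Mean log2 signal over the 4 arrays of the brightest probe set of each gene, by list; points are genes, bars are medians, the dashed line is the filter and the dotted line the 75th percentile. Type II keratins and the epithelial identity, erythroid and housekeeping lists have medians above the dotted line, and the mast cell list has its median at 2.77, below the dashed line.

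Over the 4 arrays the keratins varied little. Among the 44 keratin probe sets that reached the filter (19 of type I and 25 of type II), the range from lowest to highest array had a median of 0.21 log2 units, against 0.30 for all 22519 probe sets at or above the filter. The range passed 1.5-fold in 4 of them (9.09%, against 6.70% of all): Krt15, Krt79, Krt13 and Krt16. Keratin signals summed over all probe sets on the linear scale were 2109, 2014, 2221 and 2136 for type I and 931, 959, 964 and 975 for type II. These sums are set mostly by a few bright probe sets.

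The first berberine pair set BER beside control, both without the antibody. Type I keratins supplied the largest differences. Krt15 was 1.74-fold lower in BER (log2 difference -0.80) and Krt13 1.59-fold lower (-0.67), and no keratin was at least 1.5-fold higher. Thus 2 of 44 keratin probe sets lay at least 1.5-fold apart (4.55%, against 1.99% of all 22519). By direction, 2 were lower (1.04% of all) and 0 higher (0.955% of all), and at 2-fold there were 0 (0.0844% of all). In so short a list, 1 probe set more or less is 2.27% of the members. Krt79, a type II keratin of hair follicle and sebaceous duct, read 3.90 in control and 4.48 in BER, a difference of 0.58 that lies just short of 1.5-fold. The median difference was 0.00 over type I, 0.03 over type II and 0.00 over all probe sets at or above the filter.

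The second berberine pair, BER+DNP against DNP, had no keratin difference as large as that of Krt15 or Krt13 above, though the median size of a difference was 0.104 here and 0.0825 there. No keratin probe set was 1.5-fold apart in either direction (0 of 44, against 1.24% of all). The largest were Krt6b, higher by 0.54, Krt13, at -0.43, and Krt79, at 0.38. Krt15, the largest without the antibody, stood at 7.26 in DNP and 7.19 in BER+DNP, a difference of -0.07. The medians were -0.06 for type I, -0.02 for type II and -0.01 for all probe sets.

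The berberine pairs share no array, so they are separate measurements of the same comparison, with and without the antibody. At 1.5-fold no keratin did so in either direction, and none went opposite ways; over all probe sets at or above the filter, 13 were higher and 34 lower in both. At the milder size of 1.2-fold, chosen after the values were seen, 4 probe sets lay the same way in both pairs (9.09%, against 4.94% of all). Krt13 was lower (-0.67 and -0.43). Krt79 (0.58 and 0.38), Krt76 (0.44 and 0.29) and Krt6b (0.29 and 0.54) were higher. Krt76, a type II keratin of the palate, read 3.11, 3.55, 3.25 and 3.54 on its only probe set, which carries the suffix x. Its control signal lay below the filter. The brightest Krt14 probe set gave -0.26 and -0.18, which quantile normalization moved to -0.13 and -0.06. The Krt14 probe set with the suffix x gave -0.41 and -0.19, and the third, below the filter, 0.14 and -0.31. The probe set shared by Krt17 and Krt14 also read lower with berberine, at 5.99, 5.63, 5.94 and 5.75. The brightest probe set of Krt17 alone gave 0.20 and 0.01, and its other, below the filter, 0.54 and 0.05.

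Signs were split. Keratin probe sets above 0 in both berberine pairs numbered 12 of 44 (27.3%, against 25.5% of all), and those below 0 in both 15 (34.1%, against 28.9%). Across the 44 keratin probe sets the differences of the pairs correlated at r = 0.59 (Spearman's rho 0.53), against r = 0.20 across all probe sets at or above the filter. Without Krt15 and Krt13, farthest from the median in BER against control, r was 0.58. The points are probe sets of 2 gene clusters, several of them from the same gene, and the value is a description without a test. Krt13 rests on 1 of 3 probe sets: its other 2, both below the filter, gave -0.22 and 0.57, and -0.17 and 0.18.

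**Figure D4:**
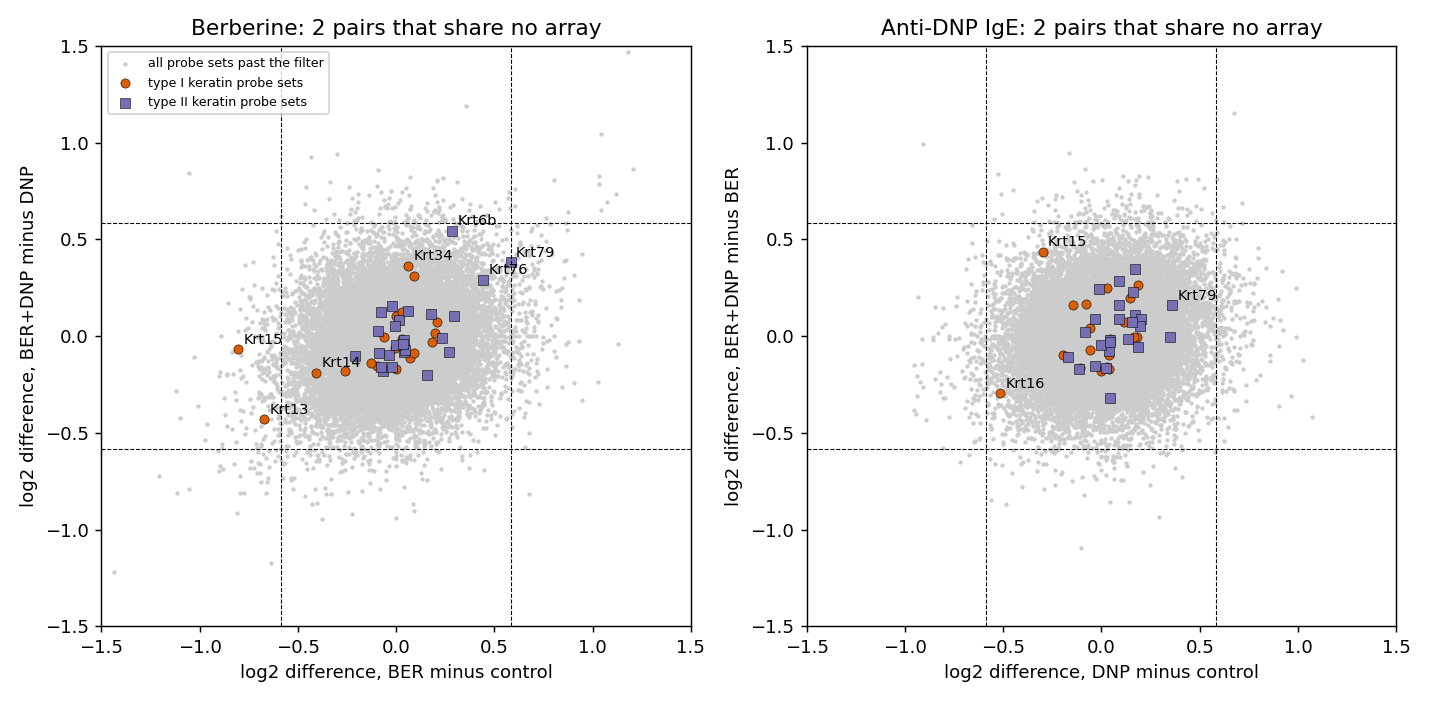
Log2 differences of the 44 keratin probe sets at or above the filter (circles for type I, squares for type II) over all 22519 such probe sets (grey), with dashed lines at 1.5-fold. On the left the berberine pairs, with Krt15 and Krt13 past the line in BER against control only; on the right the anti-DNP IgE pairs, where all keratins lie inside the lines.

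The first antibody pair set DNP beside control, both free of berberine. No keratin probe set was 1.5-fold apart (0 of 44, against 1.49% of all). Krt16 had the largest difference, 1.43-fold lower (-0.52), and Krt79 was higher by 0.36. The medians were 0.03 for type I, 0.09 for type II and 0.02 for all probe sets, and 18 of 25 type II probe sets lay above 0 (72%, against 52.4% of all). In the pair given berberine (BER+DNP against BER), again 0 of 44 passed 1.5-fold (against 0.986% of all), with Krt15 highest at 0.44 and Krt6a lowest at -0.32. Type II probe sets above 0 there were 13 of 25 (52%, against 48.8% of all). Krt16 was the only keratin at least 1.2-fold apart the same way in both pairs (-0.52 and -0.29), 2.27% of the 44 against 3.84% of all probe sets. Krt15 went opposite ways, at -0.30 without and 0.44 with berberine, both short of 1.5-fold. Over the 7 mast cell genes at or above the filter, median differences were 0.34 without and 0.24 with berberine. Over all probe sets at or above it they were 0.02 and 0.00. The 0.34 is the value of Cma1, which read 3.10 in control, below the filter, and passed through its treated arrays. The 9 mast cell genes below the filter are not in these medians. Over the 14 pan-leukocyte genes at or above the filter, median differences were -0.18 and -0.01. The part of either list in the keratin values was not tested. With the antibody, both probe sets of Krt14 alone at or above the filter were higher in both pairs. The brightest gave 0.18 and 0.26 and the other 0.03 and 0.25. The third Krt14 probe set, below the filter, gave 0.31 and -0.14. The probe set shared by Krt17 and Krt14, above the filter, gave -0.05 and 0.12.

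Both agents together against control left 1 of 44 keratin probe sets past 1.5-fold (2.27%, against 1.78% of all). At 2-fold there were 0 (0.0711% of all). The 1 was Krt79, at 3.90, 4.48, 4.26 and 4.64, 1.67-fold higher with both (0.74). Control was the lowest of the 4 arrays, and its signal lay below the 75th percentile. Next came Krt6b (0.53), Krt13 (-0.51), Krt76 (0.43) and Krt15 (-0.37). This comparison shares the control array with both single treatments.

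Of the 15 desmosome and linker genes at or above the filter, 0 passed 1.5-fold in either berberine pair or either antibody pair. With both agents against control, 2 did (13.3%, against 1.78% of all probe sets). The first share is over genes by their brightest probe set and the second over probe sets, so they are of unlike units. In so short a list the 13.3% rests on 2 genes. Against control, Plec was higher with both agents (0.62), reading 8.56 against 7.95 in control and no more than 8.05 on the others. Pkp4, which encodes a plakophilin of cell junctions, was lower there (-0.65), with 4.87, 4.48, 4.34 and 4.22. The Plec difference came from the BER+DNP array alone, and for Pkp4 the control array stood highest.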

How the data were processed

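Log2 signals from 4 arrays were used as deposited. The authors used Affymetrix Expression Console, per the submitters' processing notes; its version and summary algorithm are not given in the sources here. The log2 scale was read from the values. The medians of the arrays lay between 3.13 and 3.15, so no further scaling was applied, and any shrinkage of dim signals by the unstated algorithm remains.

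The 64 control probe sets were set apart, leaving 45037. Symbols came from a 2016 platform annotation, with 1 symbol for 34945 probe sets, several for 932 and none for 9160; all 48 keratin symbols were found in the RefSeq table of GRCm38.p6. The filter was the median over probe sets of the mean signal (3.14), and the threshold 1.5-fold. With 1 array in each group, differences carry no p-value. Percentages said to be of all, or set after the word against, are shares of all probe sets or of all genes by their brightest probe set. For promoter letters they are shares of all promoter entries. Each uses the same threshold or letters as its count. Other percentages are shares of the list itself. Any keratin at or above the filter could be named, with signals on each array mainly for those at or above the 75th percentile; from each other list, up to 4 genes of the highest mean, plus linker genes past 1.5-fold. Named after their values were seen were keratins and defining markers below the filter, Epcam, Cma1, Alb, Hba-a1, Rpl14, Rpl37a, Eef2, Perp and Vim. Keratin membership, gene lists and rules were chosen with earlier results of these data known. Alternatives were quantile normalization, other filters, 32 added to the linear signals, no probe sets with suffix x, s or a, probe sets with several symbols, a 2-fold threshold and medians over the probe sets of a gene. Steps were tested on simulated arrays. Python 3.11.15, pandas 2.3.3 and numpy 2.4.6 were used.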

Additional observations from a re-analysis of the deposited data

How the results depend on the processing

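Under the alternatives, 44 keratin probe sets at the filter became 29 when the 75th percentile was the filter, and the 2 past 1.5-fold in BER against control became 1 with 32 added to the signals and 0 at 2-fold. The 1 probe set past 1.5-fold with both agents against control became 0 under either change. Quantile normalization made it 3 in BER against control, 1 higher (Krt79, 0.59) and 2 lower. The median differences ran from -0.0441 to 0.0423 over all 5 comparisons. The other 3 comparisons had 0 past 1.5-fold in every alternative run. With 32 added, which damps dim signals, Krt13 gave -0.29 in BER against control and Krt79 0.28 with both agents; with the median of its probe sets Krt13 gave -0.17 in BER against control. In BER+DNP against DNP its probe sets gave -0.43, 0.57 and 0.18, so they do not share a direction. Krt15 remained past 1.5-fold lower, at -0.76 with quantile normalization and -0.65 with 32 added. No paired analysis was possible because the labels number no replicates that could form a block; an additive fit of berberine and antibody over the 4 arrays was not run. Detection calls were not used here, so dim keratins have no stated limit of detection.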

Other observations

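Outside the keratins and their linkers, the lens filament gene Bfsp2 was the one intermediate filament gene past 1.5-fold. It read 5.03, 4.42, 4.37 and 4.39. The 3 treated arrays lay close together and the control array above them, so the differences against control of -0.61, -0.66 and -0.65 share that 1 array.

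Several keratin probe sets had exactly the same value, to 5 decimals, on more than 1 array. This held for 6 of 61 keratin probe sets (9.84%) and for 9.49% of all probe sets. Krt86, a hair keratin gene, read 3.25619 on 3 arrays, and Krt73 had that value in BER; it occurs 283 times in the whole table. The other 5 repeated values each occur 2 to 4 times in the table.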
